A study of Saccharomyces cerevisiae with 4 samples.

Results

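The phosphate regulon genes described here are 10 yeast genes for the uptake, release and storage of inorganic phosphate, chosen by their systematic names. They are PHO5 (YBR093C), PHO11 (YAR071W), PHO12 (YHR215W), PHO3 (YBR092C), PHO8 (YDR481C), PHO84 (YML123C), PHO89 (YBR296C), PHO81 (YGR233C), SPL2 (YHR136C) and VTC3 (YPL019C), and all 10 were found among the 7126 rows of the deposited table. Their RNA was measured by poly(A) RNA sequencing in 4 libraries of Saccharomyces cerevisiae BY4741, a haploid strain of mating type a. Every library came from cells with CRISPR interference, which uses a Cas9 protein without cutting activity to hold back transcription where its guide RNA directs it. In 2 libraries, scrambled A and B, the guide RNA was scrambled, and in the other 2, +116 A and B, it was the guide +116 against the GAL10 noncoding RNA. All cells were grown to mid-log phase, from an optical density of 0.1 to 0.4, on glucose in synthetic complete medium lacking leucine and uracil. Neither the phosphate nor the thiamine content of the medium is given in the labels, and no low-phosphate culture was among the samples. The labels name the libraries of a group A and B but not whether they came from separate cultures, so the p-values measure the spread between these libraries, which may be technical.

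Yeast senses phosphate through the PHO pathway. When phosphate is plentiful, the cyclin Pho80 and the kinase Pho85 phosphorylate the activator Pho4, which then stays out of the nucleus; when phosphate is scarce, the inhibitor Pho81 holds the kinase back, and Pho4 enters the nucleus and works with Pho2 on its target genes. The classical targets encode secreted acid phosphatases, high-affinity phosphate transporters and proteins of polyphosphate synthesis. PHO3, the neighbour of PHO5, is known instead as an acid phosphatase gene that is repressed by thiamine rather than by phosphate.

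Pho4 is known to bind the core motif CACGTG and the variant CACGTT. Both were searched for on both strands in the 300 bases from −400 to −101 upstream of each coding start in the RefSeq R64 genome. The first motif reads the same on both strands, and a match to one form cannot overlap a match to the other. At least 1 of them was present in 9 of the 10 windows, against 13.8% of 6001 windows upstream of protein-coding genes. CACGTG was present in 7 of the 10, against 4.55% of all windows, and CACGTT in 4 of the 10, against 9.85%. The 10 genes were chosen as phosphate regulon genes, which include known Pho4 targets, so these shares are a description and not a test. PHO5 and VTC3 held both, as did 0.550% of all windows, and PHO3 held neither. The upstream windows of PHO11 and PHO12 are copies of each other, with 98.7% of aligned bases identical, so these genes do not count as separate cases. The windows of 4 genes are shown because they span the range of motif content and of RNA level: PHO5, the textbook target, with both forms; PHO3, with none and the highest RNA level of the 10; VTC3, with 3 motifs and an intermediate level; and SPL2, with 2 motifs and one of the lowest levels. Capitals mark the motifs, a CACGTT on the other strand appearing as AACGTG, and the coordinates are those of R64.
PHO5 (chrII:431052-431351, minus strand): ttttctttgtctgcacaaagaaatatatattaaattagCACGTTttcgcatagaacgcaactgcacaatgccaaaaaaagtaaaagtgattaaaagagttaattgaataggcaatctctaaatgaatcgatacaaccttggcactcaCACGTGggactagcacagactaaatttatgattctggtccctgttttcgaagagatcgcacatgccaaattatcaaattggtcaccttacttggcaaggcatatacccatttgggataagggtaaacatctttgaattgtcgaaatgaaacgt
PHO3 (chrII:429202-429501, minus strand): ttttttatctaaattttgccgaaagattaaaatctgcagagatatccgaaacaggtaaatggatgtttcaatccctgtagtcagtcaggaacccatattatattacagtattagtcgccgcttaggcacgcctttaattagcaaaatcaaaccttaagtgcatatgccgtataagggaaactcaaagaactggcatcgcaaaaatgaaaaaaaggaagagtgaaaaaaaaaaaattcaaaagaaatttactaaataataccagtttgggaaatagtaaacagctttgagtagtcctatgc
VTC3 (chrXVI:517119-517418, minus strand): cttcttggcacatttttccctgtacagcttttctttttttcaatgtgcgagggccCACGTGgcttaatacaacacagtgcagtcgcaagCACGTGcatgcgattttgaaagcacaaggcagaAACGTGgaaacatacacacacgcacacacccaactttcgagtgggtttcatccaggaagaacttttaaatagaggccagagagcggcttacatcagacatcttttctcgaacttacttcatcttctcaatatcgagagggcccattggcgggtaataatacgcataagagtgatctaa
SPL2 (chrVIII:375201-375500, minus strand): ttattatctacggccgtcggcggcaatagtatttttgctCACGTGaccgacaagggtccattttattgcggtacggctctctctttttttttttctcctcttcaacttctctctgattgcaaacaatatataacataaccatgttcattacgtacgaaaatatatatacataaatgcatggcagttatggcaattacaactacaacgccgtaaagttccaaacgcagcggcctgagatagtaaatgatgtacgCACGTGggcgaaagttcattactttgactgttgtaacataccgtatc
These matches describe the letters of the windows and do not show that Pho4 was bound in these cells.

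**Figure D1:**
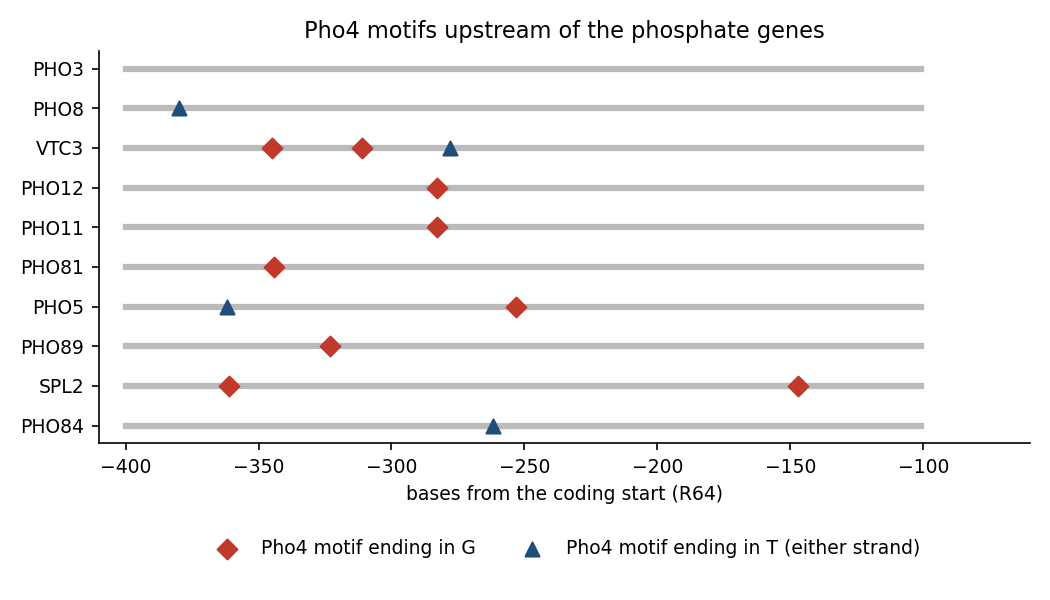
Positions of the Pho4 motifs in the window from −400 to −101 upstream of each coding start (x axis, bases from the coding start), with 1 grey bar per gene in the order of RNA level, highest at the top. Diamonds mark CACGTG and triangles CACGTT on either strand; PHO3 has no mark, and VTC3 has 3.

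The acid phosphatase genes of the set are relatives, which bears on how far their reads can be told apart. PHO3 and PHO5 lie in tandem on chromosome II, and their coding sequences, both of 1404 bases, are identical at 86.5% of positions. PHO11, on chromosome I, and PHO12, on chromosome VIII, differ at 4 of 1404 bases. These substitutions are A273G, A1060C, C1245T and A1268G, with the base of PHO11 first, then the position counted from 1 at the first base of the coding sequence, and then the base of PHO12. The stretch of 80 bases from position 1189 to 1268, on the coding strand in R64, is shown because it holds 2 of the 4 differences, which are in capitals.
PHO11: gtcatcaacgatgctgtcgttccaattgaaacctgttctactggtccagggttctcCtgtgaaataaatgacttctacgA
PHO12: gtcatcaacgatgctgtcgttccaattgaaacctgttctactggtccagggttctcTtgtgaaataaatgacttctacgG
Of the windows of 50 bases in PHO11, 88.3% occur elsewhere in the genome as an exact copy, and of those of 100 bases 75.2%. For PHO12 these shares were 87.2% and 75.2%. For PHO5 and PHO3 they were 12.3% and 8.71% at 50 bases and 0% at 100, and for the other 6 genes 0% at both lengths. The read length is not given in the sources used here, nor is the treatment of reads that map to several places. The levels of PHO11 and PHO12 are therefore uncertain, separately and summed, and could be too low if such reads were dropped. With reads as short as 50 bases the level of PHO5 would be uncertain too, since it shares exact windows with other acid phosphatase genes.

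In these glucose-grown cells the mean levels of the 10 genes spanned a 1531-fold range, and the order was nearly the same in every library. Levels are compared between genes as RPKM, the reads recovered from the table divided by the coding length in kilobases and by the library's gene-assigned reads. PHO3 was highest, at 431.0 to 488.2 RPKM over the 4 libraries. PHO8, which encodes the vacuolar alkaline phosphatase, followed at 81.4 to 90.5 RPKM. VTC3, for a subunit of the vacuolar complex that makes polyphosphate, had 22.1 to 25.1 RPKM. PHO12 had 18.0 to 20.6 RPKM and PHO11 16.2 to 19.3 RPKM, ranges that overlap. Their place in the order depends on how their shared reads were treated, which is not given. PHO81, the kinase inhibitor gene, had 9.73 to 10.5 RPKM, and PHO5, the main repressible acid phosphatase gene, 6.49 to 6.95 RPKM. The level of PHO5 also depends on the treatment of shared reads if the reads were short. PHO89, for a sodium-coupled phosphate transporter, had 1.11 to 1.75 RPKM, and SPL2, for a small protein that acts on low-affinity phosphate transport, 1.10 to 1.77 RPKM, again overlapping. PHO84, the main high-affinity phosphate transporter gene, was lowest, at 0.275 to 0.386 RPKM. Apart from PHO12 with PHO11 and PHO89 with SPL2, neighbours in this order had ranges that did not overlap across the 4 libraries. Among 5806 tested genes with a length, the mean level of PHO3 lay at the 94.0th percentile, that of PHO8 at the 72.6th, that of PHO5 at the 9.40th and that of PHO84 at the 0.448th.

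**Figure D2:**
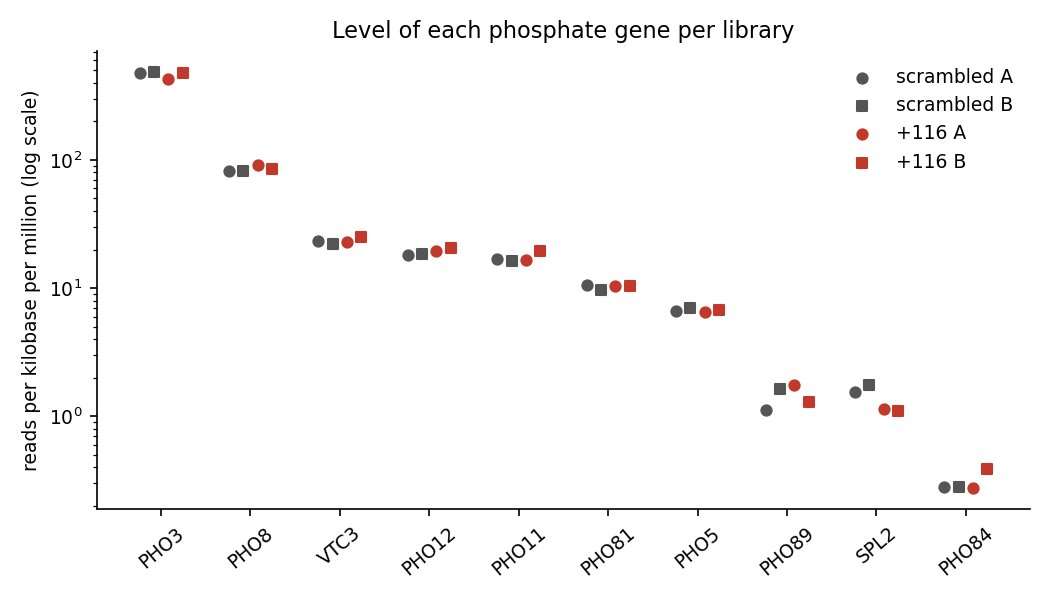
Level of each phosphate gene in each library, in RPKM on a log scale, with genes ordered by mean level. Grey points are the scrambled libraries and red points the +116 libraries (circles A, squares B); PHO3 lies above 400 in all 4 and PHO84 below 0.4 in all 4.

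The guides were then compared gene by gene, which asks whether inhibiting the GAL10 noncoding RNA went with a difference in phosphate genes. None of the 10 passed the test (limma over all genes, adjusted p threshold 0.05): 0 were called higher and 0 lower. At an unadjusted p under 0.05 were 0 in limma, against 21.8% of all genes tested, and 0 each in edgeR and DESeq2. That share of all genes was not taken for edgeR and DESeq2. Of all 6277 genes tested, limma called 0.844%, with 0.51% higher and 0.335% lower, so a count of 0 among 10 genes is near the background. EdgeR called 2.64% of all genes and DESeq2 5.56% of those it gave an adjusted p. All 10 genes passed the filter of a mean of at least 5 normalized reads. Their log2 folds (+116 minus scrambled, on the log2(value + 1) scale) ran from −0.54 to 0.20 with a median of 0.08, and 7 were above 0. Over all genes tested the median was 0.0013, and 50.5% were above 0. The median of the 10 genes was 0.0096 without +116 B and 0.016 after a correction for gene length. The lowest adjusted p of the 10 was 0.283, for PHO8 (limma). A missed threshold does not show that the levels were alike, so each gene is given with the 95% interval of its fold.

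**Figure D3:**
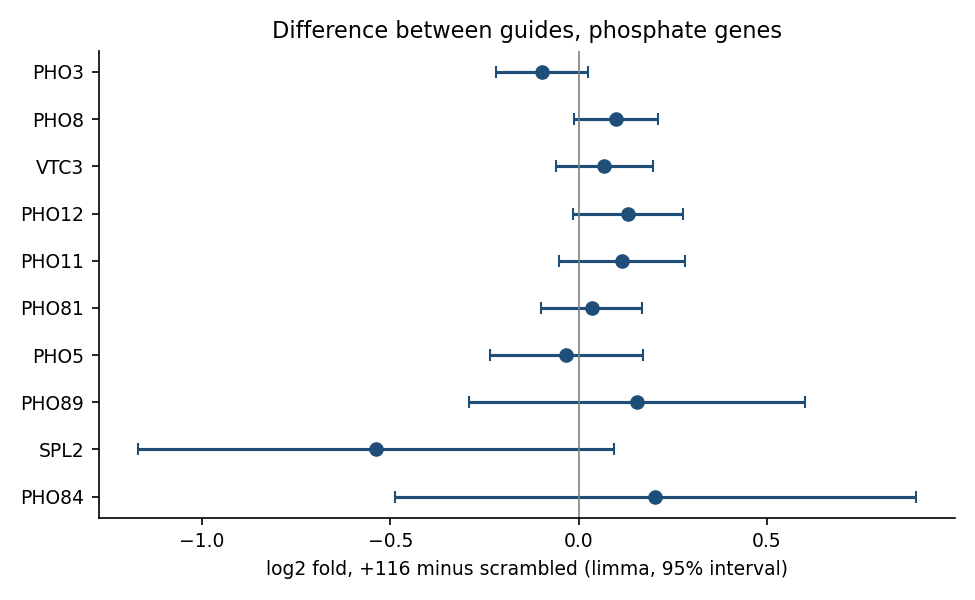
Log2 fold of each phosphate gene, +116 minus scrambled (x axis), as the limma estimate with its 95% interval, n = 2 libraries per guide. All 10 intervals include 0, and they are widest for PHO84, SPL2 and PHO89, the genes with the fewest reads.

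Among the acid phosphatase genes, PHO3 had 24576 and 25696 normalized reads in scrambled A and B and 22434 and 24617 in +116 A and B. The groups overlapped, since +116 B lay just above scrambled A. The means were 25136 ± 792 (scrambled, SD, n = 2) and 23525 ± 1544 (+116, SD, n = 2), a fold of 0.935 with a 95% interval of 0.859 to 1.02 (limma adjusted p = 0.340). PHO5 had 340.1 and 366.0 normalized reads in scrambled A and B and 338.0 and 352.0 in +116 A and B. Each A library was below its B library, and the groups overlapped. The fold of PHO5 was 0.978 with a 95% interval of 0.850 to 1.12 (limma adjusted p = 0.869).

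PHO11 had 867.3 and 854.6 normalized reads in scrambled A and B and 868.9 and 1002 in +116 A and B. Its groups did not overlap, but +116 A exceeded scrambled A by less than the counting error of either, and +116 B alone stood higher. The fold was 1.08 with a 95% interval of 0.965 to 1.22 (limma adjusted p = 0.411). PHO12 had 927.9 and 967.5 normalized reads in scrambled A and B and 1008 and 1068 in +116 A and B. Here both +116 libraries were above both scrambled libraries, at a fold of 1.09 with a 95% interval of 0.989 to 1.21 (limma adjusted p = 0.285). With both copies summed to 1 row, since their reads are hard to tell apart, the log2 fold was 0.12 (limma adjusted p = 0.265). It was 0.053 without +116 B and 0.19 without +116 A.

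PHO3 had most of the reads assigned to these 4 genes. Its share was 92.0% in scrambled A (exact 95% binomial interval 91.7% to 92.3%), 92.2% in scrambled B (91.8% to 92.5%), 91.0% in +116 A (90.7% to 91.4%) and 91.0% in +116 B (90.7% to 91.4%). The intervals of the groups do not overlap, and they cover counting error only, as reads are not independent molecules. They do not allow for the unknown treatment of reads shared by PHO11 and PHO12, which could make the share of PHO3 too high. Between the guides the share differed by −1.05 percentage points (two-sided exact permutation test over libraries, p = 0.333, the smallest that 2 libraries against 2 allow). The share of PHO5 was 1.27% to 1.37%. In RPKM, PHO3 exceeded PHO5 by 66.4 to 72.3 times within a library, and PHO12 exceeded PHO11 by 1.07 to 1.16 times. Short reads that PHO5 shares with other acid phosphatase genes could shift its share and its ratio to PHO3.

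PHO8 had 5116 and 5189 normalized reads in scrambled A and B and 5707 and 5341 in +116 A and B. Both +116 libraries were above both scrambled libraries, and +116 A stood furthest from them. The fold was 1.07 with a 95% interval of 0.992 to 1.16 (limma adjusted p = 0.283). On the log2 scale this was the narrowest interval of the 10 genes.

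The high-affinity transporter genes were close to silent in all 4 libraries, which limits what can be said of them. PHO84 had 18.1 and 18.6 normalized reads in scrambled A and B and 18.0 and 25.1 in +116 A and B, from 20, 17, 18 and 25 reads. The other libraries were nearly equal, and +116 B was higher, with a Poisson 95% interval of 16.3 to 37.1 that includes the other 3 values. The fold was 1.15 with a 95% interval of 0.713 to 1.86 (limma adjusted p = 0.746), so a difference of that size was not detectable at this depth. PHO89 had 70.5 and 105.2 normalized reads in scrambled A and B and 112.0 and 82.5 in +116 A and B. The order of A and B was opposite in the groups, and the values overlapped widely. The fold was 1.11 with a 95% interval of 0.818 to 1.52 (limma adjusted p = 0.692), and it turned below 1 without scrambled A (log2 fold −0.13) or without +116 A (−0.06).

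These transporter genes can be set beside the other phosphate transporter genes on the RPKM scale. PHO87 and PHO90 encode low-affinity transporters of the plasma membrane, and PHO91 a phosphate transporter of the vacuole. Of the RPKM summed over these 5 genes, PHO84 made up 0.238% to 0.320% in the 4 libraries and PHO89 0.985% to 1.51%. PHO90 made up 35.2% to 35.9%, PHO91 38.0% to 38.3% and PHO87 24.1% to 25.1%. PHO90 exceeded PHO84 by 110.0 to 150.9 times within a library.

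PHO81, whose product inhibits Pho80-Pho85, had 1365 and 1291 normalized reads in scrambled A and B and 1360 and 1360 in +116 A and B. The +116 values lay between the scrambled ones. The fold was 1.02 with a 95% interval of 0.934 to 1.12 (limma adjusted p = 0.779). SPL2 had 25.3 and 29.6 normalized reads in scrambled A and B and 19.0 and 18.1 in +116 A and B, from 28, 27, 19 and 18 reads. Both +116 libraries were below both scrambled libraries, while the Poisson 95% intervals of all 4 overlapped, that of scrambled A running from 16.8 to 36.6 and that of +116 B from 10.7 to 28.6. SPL2 had the largest estimated difference of the 10 genes, at −0.54 on the log2 scale (SE 0.294), a fold of 0.689 with a 95% interval of 0.444 to 1.07 (limma adjusted p = 0.303).

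VTC3 had 2164 and 2081 normalized reads in scrambled A and B and 2131 and 2324 in +116 A and B. The groups overlapped, and +116 B was highest. The fold was 1.05 with a 95% interval of 0.958 to 1.15 (limma adjusted p = 0.540). VTC4, which encodes the catalytic subunit of the same complex, exceeded VTC3 by 2.37 to 2.56 times in RPKM within a library.

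Differences between the A and B libraries of a group were as large as those between the guides for most of the 10 genes. In 7 of the 10, the log2 fold between the guides was smaller than the larger A to B difference within a group, as in 60.3% of all genes tested. PHO89 differed by −0.57 on the log2 scale between scrambled A and B and by 0.44 between +116 A and B, against 0.16 between the guides. PHO84 differed by −0.46 between +116 A and B, against 0.20 between the guides. The 3 genes whose difference between the guides was the larger were PHO12, PHO8 and SPL2. Without overlap between the groups were 4 of the 10, PHO8, PHO11 and PHO12 higher and SPL2 lower with +116, against 53.5% of all genes tested.

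**Figure D4:**
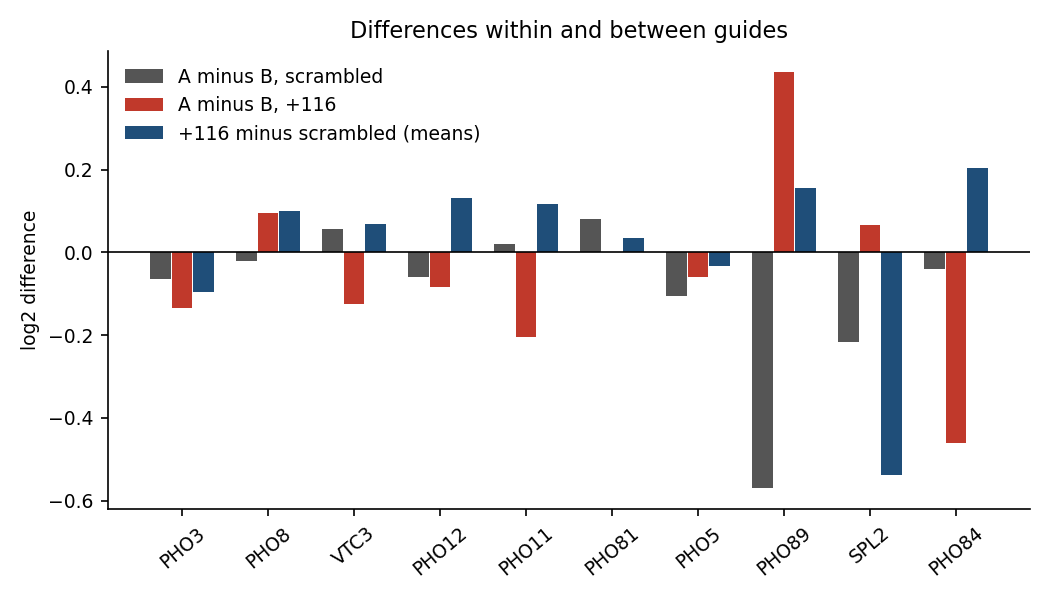
Log2 differences of each phosphate gene (y axis) between libraries A and B with the scrambled guide (grey), between A and B with +116 (red) and between the guide means, +116 minus scrambled (blue), on the log2(value + 1) scale. For PHO89 the grey and red bars point opposite ways and exceed the blue one; for SPL2 the blue bar is the longest, at −0.54.

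The wider pathway was read from 6 lists with 56 genes, all tested, of which 0 were called (limma), 38 had log2 folds above 0 and 13 had an unadjusted p under 0.05, or 23.2% against 21.8% of all genes. Their median log2 fold was 0.05. Of the 14 signalling genes, 9 were above 0, with a median of 0.02. PHO4, the activator, averaged 1626 ± 130 normalized reads in the scrambled libraries and 1893 ± 49.0 in the +116 libraries (SD, n = 2), or 0.22 on the log2 scale (limma adjusted p = 0.0964). SIW14, an inositol pyrophosphate phosphatase gene, had −0.15 (limma adjusted p = 0.159), PHO2, the partner of Pho4, 0.12 (0.306) and PSE1, which imports Pho4 into the nucleus, 0.07 (0.467). The kinase genes PHO85 and PHO80, the latter for its cyclin, had 0.02 and −0.08. PHO4 passed the threshold with robust empirical Bayes (limma adjusted p = 0.0181). That setting called 410 of all 6277 genes tested, against 53 in the main fit. The log2 fold of PHO4 was 0.25 without +116 B, where the lone +116 library is assumed to vary like the scrambled pair. It was 0.14 without scrambled B.

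Of the 8 transport genes, 6 were above 0, with a median of 0.08. SYG1, of the family of phosphate exporters, was at 0.18 (limma adjusted p = 0.0950), PHO88, named SND3 in RefSeq, −0.15 (0.144), PHO91 0.09 (0.299) and PHO90 0.08 (0.354). After the length correction SYG1 was at 0.09 (limma adjusted p = 0.380). Of the 7 polyphosphate genes, 4 were above 0, with a median of 0.05. PPX1, the cytosolic exopolyphosphatase gene, had −0.12 (limma adjusted p = 0.221), PPN1, a vacuolar polyphosphatase gene, 0.10 (0.285), VTC5 0.11 (0.297) and VTC4 0.05 (0.587). Of the 8 other targets and phosphatases, 5 were above 0, with a median of 0.03. PHM7 had 0.23 (limma adjusted p = 0.198), PHM8, a nucleotide phosphatase gene, 0.29 (0.391), NPP1, a nucleotide pyrophosphatase gene, 0.08 (0.392) and DIA3, a relative of PHO3, −0.13 (0.575).

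Of the 10 genes for chromatin proteins that act at the PHO5 promoter, 9 were above 0, with a median of 0.09 and 5 at an unadjusted p under 0.05 (limma). Over all genes tested, 50.5% were above 0 and 21.8% had an unadjusted p under 0.05. Such genes numbered 2 each in the signalling, transport and thiamine lists. The polyphosphate list and the other targets and phosphatases had 1 each. INO80, a chromatin remodeller gene, was at 0.21 (limma adjusted p = 0.0821), ARP8, of the same complex, 0.21 (0.0890), SNF5, of the SWI/SNF remodeller, 0.18 (0.113) and CHD1 0.13 (0.176). After the length correction INO80 was at 0.11 (limma adjusted p = 0.391), ARP8 at 0.12 (0.366) and SNF5 at 0.09 (0.462). PHO5 itself had −0.03, as given above. Of the 9 thiamine genes, listed because PHO3 responds to thiamine, 5 were above 0, with a median of 0.01. PDC2, a regulator of thiamine genes, had 0.16 (limma adjusted p = 0.146), THI72 0.26 (0.160), THI2, another regulator, 0.12 (0.490) and THI80 −0.06 (0.592). Mean levels of the 9 thiamine genes ran from 5.30 RPKM (THI72) to 42.0 RPKM (THI80), against 467.5 RPKM for PHO3. The thiamine synthesis gene THI4 was at 8.74 RPKM. The thiamine state of the cells was not tested.

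**Figure D5:**
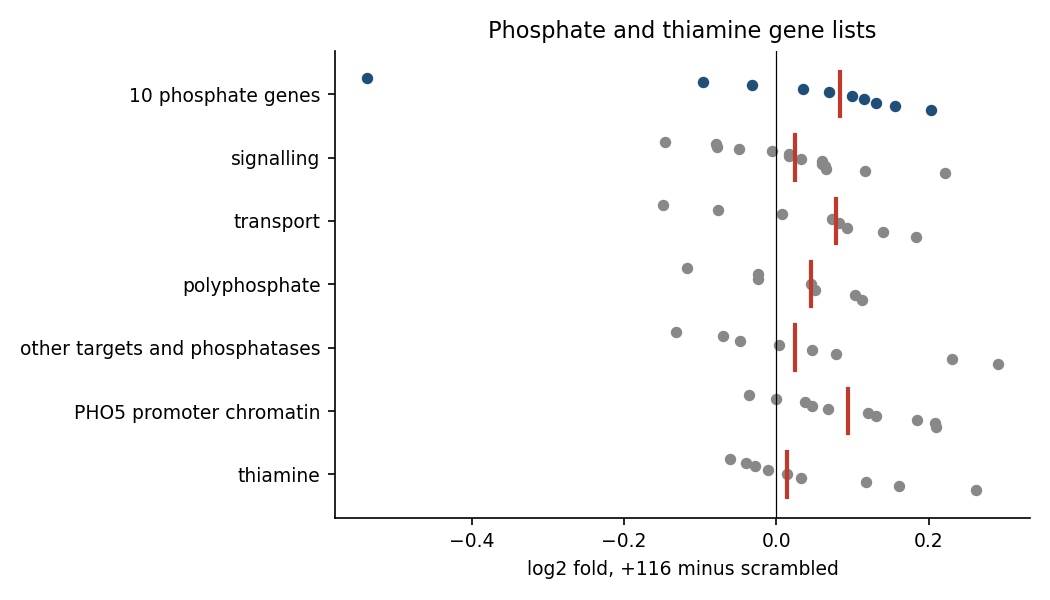
Log2 folds, +116 minus scrambled (x axis), of the 10 phosphate genes (blue) and of the 6 other lists (grey), 1 point per gene, with a red bar at each list's median. The medians lie between 0.01 and 0.09, and the phosphate gene farthest left is SPL2.

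Among the 6048 rows matched to R64 by locus tag, 17 genes lay next to the 10 in the gene order, of which 15 were tested. They included 0 called genes (limma), with log2 folds of −0.15 to 0.26. PHO11 had such a neighbour on its left side only. No annotated gene among the matched rows overlapped one of the 10, and the unmatched rows were not searched. IMD2, beside PHO12 and one of several similar genes of guanine nucleotide synthesis, had 4376 and 5511 normalized reads in scrambled A and B and 4998 and 5538 in +116 A and B (log2 fold 0.10, limma adjusted p = 0.529). It can share reads with its copies.

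The libraries held 34215480 to 40628383 gene-assigned reads. GAL1, the gene on the strand of the targeted noncoding RNA, had 410.6 and 468.9 normalized reads in scrambled A and B and 133.0 and 115.7 in +116 A and B, which separates the groups as labelled. GAL10 averaged 103.9 ± 12.7 in the scrambled and 181.5 ± 14.9 in the +116 libraries (SD, n = 2; limma adjusted p = 0.0403). Haploid a cells should express the a-factor gene MFA1, at 8609 to 10703 normalized reads here, and lack the alpha-factor gene MF(ALPHA)1, at 29.2 to 49.7. MET17, deleted in BY4741, was at 0 in all 4 libraries. Each value is a mean over the cells of a culture, so fewer expressing cells and less RNA per cell cannot be told apart.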

How the data were processed

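RNA was selected for poly(A) and sequenced with a stranded mRNA kit, per the labels' protocols. The submitters' processing notes name DESeq2, Picard 1.84, TopHat, TopHat2 2.0.8, Bowtie2, bcl2fastq 1.8.4 and Trimmomatic 0.30, without roles. The genome build is not given in the sources used here, nor are the annotation and read counter. The deposited values are a signal, a normalized read count (per the values, gene counts over a size factor for each library). Whole reads were recovered from 100% of values, within a tolerance of 1e-06.

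Normalized values were tested with limma 3.58.1 (R 4.3.3) on log2(value + 1) with a trend of variance on mean, for genes with a mean of at least 5, two-sided, with Benjamini-Hochberg adjustment over all 6277 genes and a threshold of 0.05. This scale understates the change of low genes. The prior of the variance had 11.55 degrees of freedom, so each p-value and interval rests mainly on the trend over all genes. Alternatives included edgeR 4.0.16 and DESeq2 1.42.0 on the recovered reads. The statistics were tested on simulated data, with planted differences larger than any estimated for the 10 genes. That check does not cover differences as small as those reported for them. Names, lengths, gene order and sequences are from RefSeq R64, to which 6048 rows matched by locus tag; the build of the counts may differ. The genes named are the 10 phosphate genes, the 4 genes of lowest p in each other list, label checks, and neighbours that were called or can share reads with a copy; PHO80, PHO85, PHO87 and THI4 were added after their values were seen. The 10 genes and all lists were chosen with earlier results of these data known.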

Additional observations from a re-analysis of the deposited data

How the results depend on the processing

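Over 16 alternatives, 0 of the 10 phosphate genes were called in any, at a lowest adjusted p of 0.17, although DESeq2 gave no adjusted p for 7 of them. Of 158 values of these genes, 151 kept their direction. Settings that changed only the filter, the variance model or the replicate block leave the fold itself unchanged, so they could not turn it. The direction turned without scrambled B for PHO5 (log2 fold 0.020) and PHO81 (−0.0053), without +116 B for PHO84 (−0.027), without scrambled A (−0.13) or +116 A (−0.062) for PHO89, and after the length correction for PHO81 (−0.070) and VTC3 (−0.019). Leaving out 1 library gave ranges of −0.085 to 0.020 for PHO5, −0.0053 to 0.075 for PHO81, −0.027 to 0.43 for PHO84 and −0.13 to 0.44 for PHO89. Of the genes that kept their direction when 1 library was left out, PHO11 ranged from 0.013 (without +116 B) to 0.22 (without +116 A), VTC3 from 0.0059 (without +116 B) to 0.13 (without +116 A), PHO3 from −0.16 (without +116 B) to −0.030 (without +116 A), PHO8 from 0.052 (without +116 A) to 0.15 (without +116 B), PHO12 from 0.089 to 0.17 and SPL2 from −0.65 to −0.43. The median of the 10 genes was 0.0096 to 0.082 when 1 library was left out, lowest without +116 B. The summed PHO11 and PHO12 fold stayed uncalled, at 0.053 to 0.19 when 1 library was left out.

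Of the 56 pathway genes, 5 were called with robust empirical Bayes (PHO4, SYG1, SNF5, INO80 and ARP8), as were 410 of all 6277 genes tested. The log2 fold of INO80 was 0.24 without +116 A, and that of PHO4 was 0.25 without +116 B. In both fits the lone +116 library is assumed to vary like the scrambled pair. The log2 folds of INO80, ARP8, SNF5 and SYG1 were 0.11, 0.12, 0.091 and 0.090 after the length correction, and that of PHO4 was 0.26. Of all genes, 53 were called as reported, against 7 with no filter, 137 with a minimum mean of 50, 149 with upper-quartile scaling, 88 with TMM scaling, 1 without a variance trend, 410 with robust empirical Bayes, 166 with edgeR, 180 with DESeq2 and 1 after the length correction. Leaving out 1 library gave 0 to 282 called genes, with 0 without scrambled A and without scrambled B. The causes were not tested. With the letter A or B as a replicate block, 258 genes, 1 pathway gene (INO80) and 0 phosphate genes were called. The labels do not say that the letters pair the libraries, and the A minus B differences of the groups correlated across genes at r = −0.041. Depth limits PHO84 and SPL2, at 17 to 28 reads a library.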
